A study of Mus musculus with 8 samples.

Results

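Of 9 genes known as targets of the transcription factor GATA2 in endothelial and blood cells, 3 had a GATA2 peak in fibroblast lines: Pecam1 in both lines, and Tek and Vwf in 3T3-L1 alone. In all 3 genes the peak lay inside the gene body, where 4.20% of all protein-coding genes had a peak of either line. The other 6 genes, Kdr, Cdh5, Tal1, Lmo2, Kit and Lyl1, were without one within 100 kb in both lines, as were 80.4% of all genes. The genes were taken by name, 9 of the 21631 protein-coding genes of the annotation used, with no threshold on a measured value. They were chosen with earlier results of these data known, so the counts are a description and were not tested.

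GATA2 was mapped by chromatin immunoprecipitation and sequencing (ChIP-seq) in 2 mouse lines, 3T3-L1, a fibroblast line committed to the fat lineage, and C3H10T1/2, an embryonic fibroblast line that can give rise to fat, bone, cartilage or muscle. The labels name 4 groups of 2 libraries: 3T3-L1 GATA2 ChIP, 3T3-L1 input, C3H10T1/2 GATA2 ChIP and C3H10T1/2 input. All were from passages 4 to 6, the ChIP groups used 1 GATA2 antibody (sc-9008x), the inputs used none, and the labels give no treatment, no time and no stage of differentiation. DNA of individual immunoprecipitations was pooled before the libraries were made, and what was analysed is 1 list of peak positions per line, with no height or score. There is therefore no replicate value and the read depth is unknown, so the lines are described side by side, without an error.

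GATA2 is a zinc finger factor that binds short DNA sites with the core letters GATA. In blood stem and progenitor cells it works in a complex with the basic helix-loop-helix factors TAL1 and LYL1 and the bridging protein LMO2, which has no DNA contact of its own. In endothelial cells GATA2 helps to keep the genes of the vessel lining active, among them those for adhesion molecules and for the receptors of vascular growth factors. Fibroblast lines such as these are neither endothelial nor blood cells, and the peak lists carry no expression values, so whether any of the 9 genes was transcribed was not measured here.

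There were 2445 peaks for 3T3-L1 (median width 144 bp) and 1557 for C3H10T1/2 (184 bp). Peaks of the 2 lists that had 1 bp or more in common were called shared, which held for 22.4% and 34.7% of the lists. Positions are mm10 (GRCm38), counted from 1, and distances run from the centre of a peak to the nearer edge of the gene. "Below" and "above" a gene mean toward lower and higher coordinates. The gene table gives no exons, so whether a peak inside a gene was exonic, intronic or in a UTR is not given.

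Sequence was at hand only for the promoters, from the RefSeq table of GRCm38.p6, which held 5 of the 9 genes: Tek, Kdr, Tal1, Kit and Lyl1. None of their 7 listed promoters, each 300 bp long, was overlapped by a peak in either line. The lines below show the 2 places in these promoters that match the GATA site, searched on both strands as AGATAA or the same letters with T first, G last or both, with the match in capitals and the sequence written 5′ to 3′ on the gene's strand. They are shown because they are GATA letters at a member's start that had no peak over them.
Tek (chromosome 4, plus strand, 94739313 to 94739338): agcaggagcagaAGATAAgccttgga
Tal1 (chromosome 4, plus strand, 115056209 to 115056238): ctatagagtcttTTATCTttgagcaattcc
The Tek match begins 36 bases after the listed start, and the Tal1 match, which is AGATAA read on the other strand, begins 205 bases before the first of 2 listed starts. The nearest 3T3-L1 peak lay 64.0 kb from the Tek promoter and 710 kb from that of Tal1. The promoters of Kdr, Kit and Lyl1 and the other listed promoter of Tal1 held no match. A GATA match was found in 25.8% of the 21045 listed promoters of protein-coding genes, so 1 match in a promoter of this length is common. The E-box CANNTG, the general site of basic helix-loop-helix factors such as TAL1 and LYL1, matched in 69.0% of all promoters. Each of the 5 genes had at least 1 promoter with it, 2 matches at Tek and 1 each at Kdr, Tal1, Kit and Lyl1. The ETS core GGAA, the site of a factor family of endothelial genes, matched in 95.7% of all promoters and in all 7 of these. Peaks over a listed promoter were rare in both lists, with 33 such promoters (0.157%) in 3T3-L1 and 40 (0.190%) in C3H10T1/2.

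Pecam1 encodes an adhesion molecule at the junctions between endothelial cells and is also present on platelets and leukocytes. It was the 1 gene of the 9 with a shared peak. The gene lies on chromosome 11 from 106654213 to 106715281 and is 61.1 kb long. The 3T3-L1 peak ran from 106659703 to 106659914 (212 bp) and the C3H10T1/2 peak from 106659654 to 106659914 (261 bp). The 2 peaks ended at the same base, and the 3T3-L1 peak lay wholly inside the C3H10T1/2 peak, which began 49 bp lower. Their centres were 24.5 bp apart, against a median of 20 bp over the 548 overlapping pairs of the lists. An identical end was seen in 7 of those pairs (1.28%), and a 3T3-L1 peak inside its partner in 262 (47.8%). Both peaks were wider than most of their lists, with 78.5% of 3T3-L1 peaks and 82.0% of C3H10T1/2 peaks narrower. The site lay 5.60 kb above the lower edge of Pecam1 by the 3T3-L1 peak, at 9.16% of the length of the gene. The strands of Pecam1, Vwf, Cdh5 and Lmo2 were not at hand. Which edge of Pecam1 holds the gene's start is therefore not given. The nearest other protein-coding genes were Tex2, which ended 46.4 kb below it, and Milr1, which began 90.8 kb above it.

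Tek encodes the receptor tyrosine kinase of endothelial cells that binds the angiopoietins. It lies on the plus strand of chromosome 4 from 94739086 to 94874976 and is 136 kb long. Its 1 peak, in 3T3-L1, ran from 94803334 to 94803414, near the middle of the gene at 64.3 kb from the lower edge. The peak was 81 bp wide, and only 3.48% of the 3T3-L1 peaks were narrower. This is the commonest width in the list, shared by 106 peaks (4.34%), of which 11.3% overlapped a C3H10T1/2 peak, against 22.9% of 3T3-L1 peaks of other widths. No C3H10T1/2 peak came within 295 kb of the Tek peak. The nearest C3H10T1/2 peak to the gene, at 95098515 to 95098639, lay 224 kb above Tek, nearer to Jun, a gene of the AP-1 factor, which was 46.4 kb away.

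Vwf encodes von Willebrand factor, the large protein that endothelial cells and megakaryocytes store and release to tether platelets. It lies on chromosome 6 from 125552948 to 125686679 and is 134 kb long. Its 1 peak, in 3T3-L1, ran from 125601869 to 125601981, at 36.6% of the gene's length from the lower edge and 84.8 kb from the higher one. It was 113 bp wide, with 30.1% of the list narrower. The nearest C3H10T1/2 peak was 869 kb below the gene, at 124683776 to 124684033 inside the phospholipid enzyme gene Lpcat3, and that site was shared with 3T3-L1. The Tek and Vwf peaks were thus both narrower than the median of their list and in 1 list alone, while the Pecam1 peaks were wider than the median of theirs and shared.

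**Figure D1:**
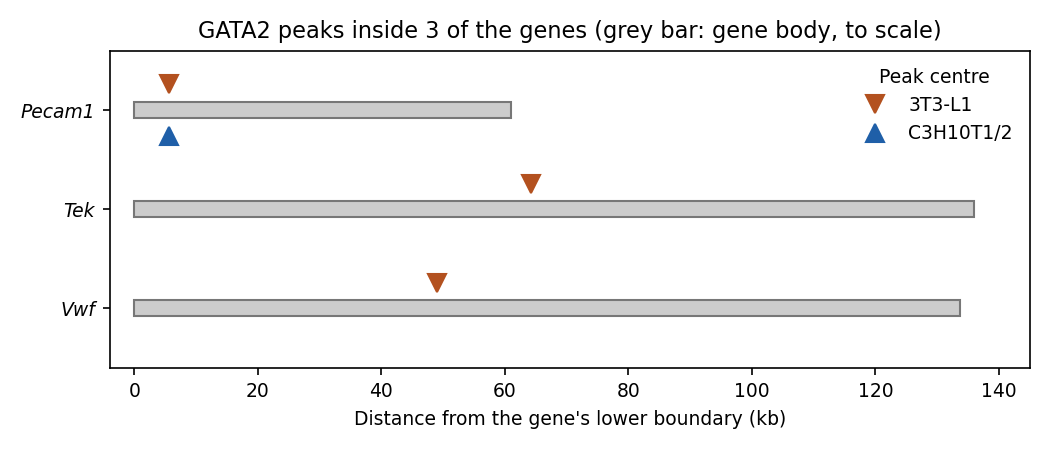
Position of GATA2 peak centres (triangles) in the bodies of Pecam1, Tek and Vwf (grey bars, to scale), in kb from the lower edge of each gene. At Pecam1 both lines have a peak near the lower edge (9.16% and 9.12% of the gene's length), while Tek and Vwf have a peak of 3T3-L1 alone, at 47.3% and 36.6%.

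Inside gene bodies, 3 of the 9 genes with a 3T3-L1 peak (33.3%) stood beside 2.79% of the 21631 protein-coding genes, and 1 of 9 with a C3H10T1/2 peak (11.1%) beside 2.59%. With peaks under the median width of their list left out, the 3T3-L1 count fell from 3 to 1, with Pecam1 left and Tek and Vwf lost. The share of all genes under that filter is not given, so the fall has nothing to be set beside. With all peaks kept, 3 of 9 genes had a peak of either line, beside 4.20% of all genes in the body and 19.6% within 100 kb. A shared peak in the body was found at 1 of 9 genes and at 0.980% of all genes. Since no further peak lay near a member, the counts stayed at 3 and 1 in the windows of 10 kb and 100 kb around the genes, where the shares of all genes were 3.96% and 3.64%, and 13.9% and 12.1%. In the C3H10T1/2 list the members' share within 100 kb was thus near that of all genes, and it comes from Pecam1 alone. The genes with a peak in the body are long: Tek and Vwf are longer than 92.4% and 92.3% of genes, and Pecam1 than 81.1%. Among the 4419 genes of 40 to 140 kb, a class chosen after the values were seen, the body held a 3T3-L1 peak in 4.64% and a C3H10T1/2 peak in 4.50%. Of the 9 genes, 6 were of that length, with 3 and 1 of them holding a peak. With 9 genes, a single gene more or less moves a share by 11.1 percentage points.

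**Figure D2:**
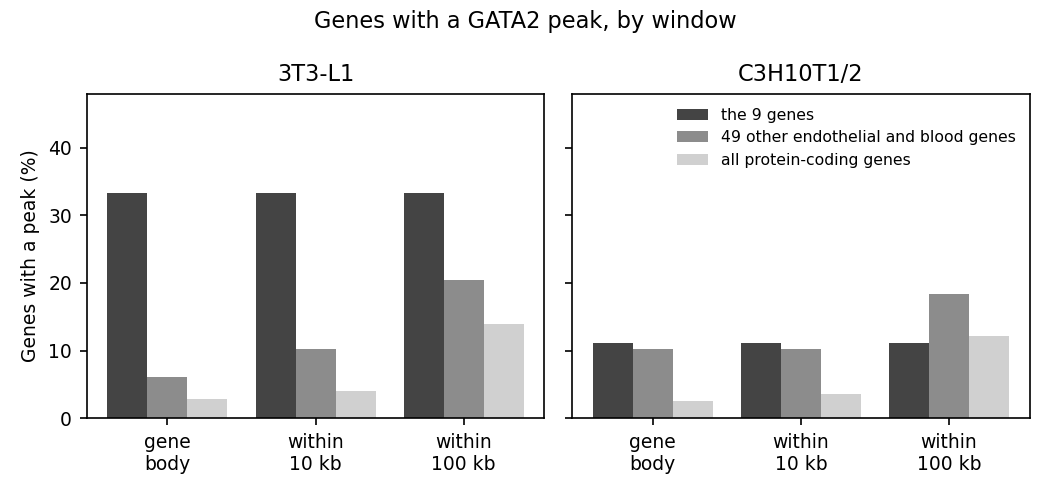
Percentage of genes with a GATA2 peak centre in the gene body, within 10 kb and within 100 kb, for the 9 genes, 49 other endothelial and blood genes and all 21631 protein-coding genes, in each line. The 9 genes stay at 33.3% in 3T3-L1 and 11.1% in C3H10T1/2 in every window, and the share of all genes rises to 13.9% and 12.1%.

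The other endothelial members were without a peak close by. Kdr encodes the main signalling receptor for vascular endothelial growth factor, and lies on the minus strand of chromosome 5 from 75932827 to 75979072. Its nearest peak in each line was 1 shared site 989 kb below it, which ran from 74944269 to 74944382 by the 3T3-L1 list and from 74944251 to 74944374 by the other. Cdh5 encodes VE-cadherin, the cadherin of endothelial junctions, on chromosome 8 from 104101613 to 104144504. A 3T3-L1 peak of 94 bp lay 278 kb below Cdh5, at 103823868 to 103823961, and no protein-coding gene was nearer to it than Cdh5. Farther below, toward the bone cadherin gene Cdh11, 6 more 3T3-L1 peaks stood 692 to 902 kb from Cdh5, and 1 of them, at 103238494 to 103238877, overlapped the C3H10T1/2 peak that was nearest to Cdh5 in that line (863 kb). The 7 peaks of 3T3-L1 within 1000 kb of Cdh5 compare with 1 of C3H10T1/2. At least 7 were found at 2.23% of all genes in 3T3-L1, where the median gene had 1.

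The 4 blood members had no peak within 100 kb in either list, the state of most genes, since 19.6% of all genes had a peak of either line at that distance. Kit encodes the receptor for stem cell factor, on the plus strand of chromosome 5 from 75574987 to 75656722, and is a neighbour of Kdr, 276 kb away. Both genes share the same nearest peaks, 631 kb below Kit, between Lnx1 and Chic2. Neither list had a peak from the lower edge of Kit to the higher edge of Kdr, and the stretch without a peak around the pair was 2197 kb in 3T3-L1 and 6163 kb in C3H10T1/2. These stretches exceeded 79.1% and 83.3% of the gaps between peaks on chromosome 5, with every gap counted once whatever its length. Over all members without a peak in a line, that figure ran from 60.2% (Tek) to 95.9% (Tal1), both in C3H10T1/2. The stretch around Kit and Kdr thus lay within the range of the other members. The C3H10T1/2 peak below the pair was 124 bp wide, the commonest width in that list (98 peaks).

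Tal1 encodes the helix-loop-helix factor that founds the blood lineage, on the plus strand of chromosome 4 from 115056426 to 115071755. Its nearest 3T3-L1 peak was 710 kb below, at 114346280 to 114346360, with the same 81 bp width as the Tek peak and nearest to Trabd2b. Its nearest C3H10T1/2 peak was 2926 kb above, inside St3gal3, the greatest distance of any of the 9 genes in either line, and 86.3% of all genes had a nearer C3H10T1/2 peak. Lyl1, a close relative of Tal1, lies on the plus strand of chromosome 8 from 84701423 to 84704716 and is 3.29 kb long, the shortest of the 9. Its nearest peaks were 1158 kb above in 3T3-L1, inside Phkb, and 985 kb below in C3H10T1/2, inside Ddx39a, and neither was shared. Lmo2, on chromosome 2 from 103957903 to 103981878, had its nearest 3T3-L1 peak 349 kb below, inside Abtb2 (103609270 to 103609387), and its nearest C3H10T1/2 peak 748 kb below, nearest to Ehf. Those peaks too were in 1 list alone.

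**Figure D3:**
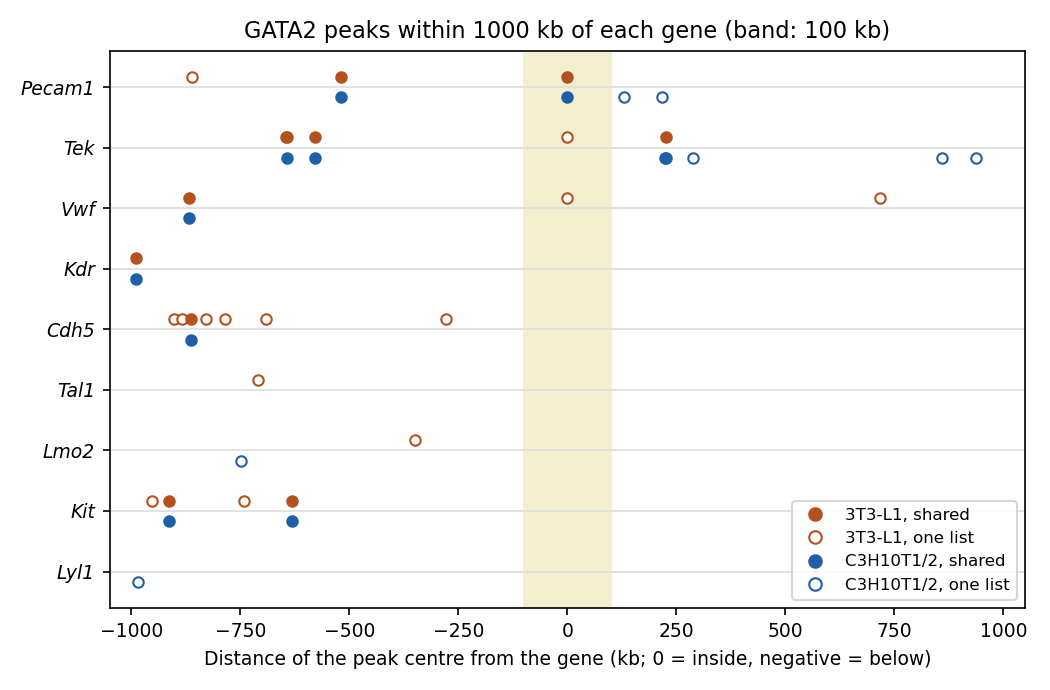
GATA2 peaks within 1000 kb of each of the 9 genes, by distance in kb from the gene (0 is inside, negative is below), with filled circles for shared peaks and open circles for peaks of 1 list. Inside the 100 kb band there are peaks at Pecam1, Tek and Vwf only, and the row of Cdh5 shows 7 peaks of 3T3-L1 and 1 of C3H10T1/2, while close peaks in the row of Tek hide each other.

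In order of distance to the nearest 3T3-L1 peak the genes were Pecam1, Tek and Vwf (0 kb), Cdh5 (278), Lmo2 (349), Kit (631), Tal1 (710), Kdr (989) and Lyl1 (1158 kb). The median was 349 kb, against 588 kb over all protein-coding genes. In C3H10T1/2 the order was Pecam1 (0 kb), Tek (224), Kit (631), Lmo2 (748), Cdh5 (863), Vwf (869), Lyl1 (985), Kdr (989) and Tal1 (2926 kb), with a median of 863 kb against 743 kb over all genes. The order of neighbours could not be set against any spread, as each line has 1 list. Within 500 kb, 4 of the 9 genes had no 3T3-L1 peak and 7 had no C3H10T1/2 peak, where 54.7% and 60.8% of all genes had none. By role, a 3T3-L1 peak within 100 kb was found at 3 of 5 endothelial and 0 of 4 blood genes (13.9% of all genes), and a C3H10T1/2 peak at 1 of 5 and 0 of 4 (12.1%). The endothelial genes are 42.9 to 136 kb long and the blood genes 3.29 to 81.7 kb. With peaks under the median width of their list left out, Pecam1 alone kept a peak, and the share of all genes that kept one is not given. No test of the split by role was made, because the genes were chosen with earlier results of these data known.

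**Figure D4:**
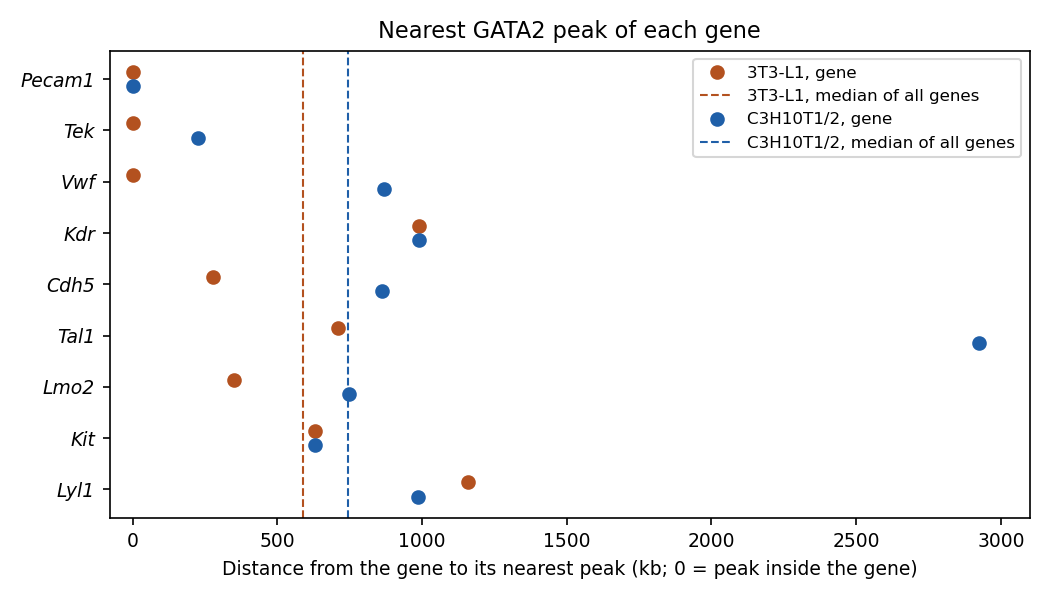
Distance in kb from each of the 9 genes to its nearest GATA2 peak in 3T3-L1 and C3H10T1/2 (circles), with the median of all protein-coding genes in each line as dashed lines (588 and 743 kb). Pecam1 lies at 0 in both lines, Tek and Vwf in 3T3-L1 alone, and Tal1 is farthest, at 2926 kb in C3H10T1/2.

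Around the 3 genes with a peak, the wider neighbourhoods differed. Within 1000 kb of Tek there were 5 peaks of 3T3-L1 and 7 of C3H10T1/2. They included a group below the gene, in the stretch between Tusc1 and Caap1, holding 3 and 2 peaks of the respective lists, all shared, and a shared peak 226 kb above Tek (95100770 to 95100945 in 3T3-L1) near Jun. At least 7 C3H10T1/2 peaks within that distance were found at 1.67% of all genes, and at least 5 of 3T3-L1 at 6.62%. The neighbourhood of Tek was thus among the denser ones in both lists, though C3H10T1/2 had no peak in Tek itself. Pecam1 had 3 and 4 peaks within 1000 kb, and 21.2% and 9.27% of all genes had at least as many. Beside the site in the gene they included a shared one inside the kinase gene Map3k3, 519 kb below, and 2 of C3H10T1/2 alone in or near Smurf2, which encodes a ubiquitin ligase of TGF-beta signalling, 131 and 218 kb above. Vwf had 3 and 1, with at least as many at 21.2% and 59.0% of all genes.

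The same count was made over 49 other genes of endothelial and blood cells. That list was written from textbook knowledge and with earlier results of these data known. It gave 10 genes with a 3T3-L1 peak within 100 kb (20.4%, beside 13.9% of all genes). With a C3H10T1/2 peak there were 9 (18.4%, beside 12.1%). With each peak counted only for its nearest protein-coding gene, 7 genes were left in each line. In the gene body there were 3 in 3T3-L1 (6.12%, beside 2.79%) and 5 in C3H10T1/2 (10.2%, beside 2.59%). Genes with a body peak in either line were Tcf4 (345 kb long), Runx1 (225 kb), Nrp1 (147 kb), Notch1 (45.9 kb) and Tcf3 (24.4 kb). The shares of all genes were not matched for length. None of these counts was tested. Of 20 receptor and adhesion genes 5 had a peak within 100 kb in each line, of 21 transcription factor genes 2 in each line, and of 8 genes for partners of the TAL1 complex 3 in 3T3-L1 and 2 in C3H10T1/2. Shared peaks within 100 kb were found at Eng, Notch1, Ptprc, Runx1 and Tcf3, and the share of all genes with one is not given. The shared site at Eng lay 11.6 kb above that gene and was nearer to Fpgs. Tcf3 encodes the E proteins that pair with TAL1. Its peaks (80433809 to 80434166 and 80433690 to 80434179 on chromosome 10) covered a gene boundary and reached over 77 bp and 196 bp of its listed promoter. This promoter held no match to the GATA site as searched here. The core letters GATA occur in the part that both peaks covered, but how often promoters hold them was not counted. Runx1, which the blood lineage needs to arise from endothelium, had 1 peak of 3T3-L1 and 4 of C3H10T1/2 in its body, with a shared site at 92710271 to 92710369 on chromosome 16 in 3T3-L1. Notch1, a receptor of arterial and blood stem cell fate, had 1 shared peak inside it (chromosome 2, 26500095 to 26500220 by the 3T3-L1 list). Nrp1, a co-receptor for vascular endothelial growth factor and a partner of Kdr, had 2 C3H10T1/2 peaks in its body and its nearest 3T3-L1 peak 348 kb away. Tcf4, another E protein gene, had 1 peak of each list in its body that did not overlap, and Gata3 had a 3T3-L1 peak 9.68 kb below it. Gata2 itself had no peak within 100 kb, the nearest being 122 kb away in 3T3-L1 and 718 kb in C3H10T1/2.

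Likeness was measured over 6 counts per gene: peaks in the body, up to 10 kb and from 10 to 100 kb away, in each line, with the sum of absolute differences as the measure. Tek and Vwf had identical counts, 1 body peak of 3T3-L1 and 0 elsewhere, as did 203 genes besides each of them (0.939%, each counting the other). The counts of Pecam1, 1 body peak in each line and 0 elsewhere, recurred at 111 genes (0.513%). None of the 49 other endothelial and blood genes had either pattern. The 6 genes without a peak had the pattern of 80.4% of all genes and of 37 of the 49, the first 5 by alphabet being Cbfa2t3, Cd34, Edn1, Epor and Erg.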

How the data were processed

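GATA2 ChIP-seq in 3T3-L1 and C3H10T1/2 cells was analysed from 1 peak list per line, deposited by the authors as chromosome, start and end, with no score column. The submitters' processing notes name mm10 and, without role or setting, MACS2, Bowtie2, bedtools, SAMtools and CASAVA 1.8. The handling of replicate and input libraries, the threshold and the filters are not given in the sources used, and these choices set which weak sites appear. Starts were moved to count from 1. Genes came from the RefSeq table of GRCm38.p6, limited to protein-coding genes on chromosomes 1 to 19 and X, which both lists cover. All 9 members and all 49 genes of the comparison list matched by symbol.

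Peaks were counted by their centre in the gene body and within 10 kb and 100 kb of it (Python 3.11.15, pandas 2.3.3, numpy 2.4.6). The counting was checked on simulated peaks against bedtools 2.31.1. No test was run, since single lists have no replicate spread. The members and lists were chosen with earlier results of these data known. Named genes were every member, the nearest protein-coding genes of their peaks, and genes of the comparison list with a shared peak within 100 kb or any peak in the body or within 10 kb. Gata2, the gene of the factor itself, was added after its values were seen. A search for motifs in the peaks themselves needs a genome and was not run.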

Additional observations from a re-analysis of the deposited data

How the results depend on the processing

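Of 60 counts of genes or peaks recomputed under the other settings, 54 stayed within 1.5 times the reported count and 6 did not. The share of genes with a peak in the body, recomputed over genes of 40 to 140 kb, a setting chosen after seeing the data, also moved by more than that, from 2.79% to 4.64% in 3T3-L1 and from 2.59% to 4.50% in C3H10T1/2. In 1 setting, peaks under the median width of their list were left out. The 3T3-L1 counts of genes with a peak in the body, within 10 kb and within 100 kb then each fell from 3 to 1. The number of peaks within 100 kb also fell from 3 to 1: the narrow peaks of Tek and Vwf drop out and Pecam1 is left. In that setting the comparison list went from 10 to 5 genes in 3T3-L1, and the share of all genes is not given. The lists hold no score, so whether a narrow peak is a weaker site is not known. In a window of 200 kb the C3H10T1/2 peaks near a member rose from 1 to 2, with the peak in Smurf2 beside Pecam1. Using peak edges, leaving out dense runs (at least 8 peaks with gaps of at most 20 kb), a 50 kb window, nearest genes only, an overlap of 50% of both peaks or centres within 1 kb left every count at the 9 genes as reported. Windows around gene starts were not run, since the table gives starts for 5 of the 9 genes. No paired analysis was possible because each line has 1 list that carries no replicate number, and no replicate could be left out for the same reason. The depth behind the lists is unknown, so the lack of a peak does not show that GATA2 was absent from a site.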
